A study of Caenorhabditis elegans with 12 samples.

Results

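The 81 genes described here encode proteins of the cytosolic ribosome of the nematode Caenorhabditis elegans. They were chosen by name from the 21982 genes of the deposited table, as every gene whose name is rpl, rps or rla followed by a hyphen and a digit. The rule uses no expression value, but earlier results of these data were known when the group was chosen. By name, 47 (rpl) belong to the large subunit, 31 (rps) to the small subunit and 3 (rla) to the stalk. rpl-24.2, counted here with the large subunit by its name, is related to an assembly factor rather than to a protein of the finished ribosome. All 12 libraries were made from RNA of whole worms of strain KH2235 on day 6. Every worm carried the same fluorescent ret-1 minigene, which reports how that gene is spliced; its promoter is not given in the sources used here. Worms were grouped by colour: the 6 Green libraries came from worms whose signal was mostly GFP, and the 6 Red libraries from worms whose signal was mostly mCherry. The labels number 6 batches, each with 1 Green and 1 Red library, and the batch number is used below as the replicate number. The comparison asks how the RNA of worms with the GFP outcome of the reporter differs from that of worms with the mCherry outcome. The labels do not say that the libraries came from separate cultures, so the p-values measure only the spread between these libraries, which may be technical.

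Ribosomes are built from a small subunit, which holds the messenger RNA and decodes it, and a large subunit, which joins the amino acids and releases the chain through an exit tunnel. The ribosomal proteins are made in matching amounts, and their messenger RNAs are among the most abundant in growing cells. In the worm, ribosomes are needed in quantity in the germline, which loads oocytes with them, and in the intestine, which makes yolk protein. A lower output of ribosomal proteins and of translation is one of the known ways to extend the life of the worm.

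Levels are given as normalized counts, which are read counts divided by 1 size factor per library. Recovered totals ran from 30185155 to 56195864 reads in the libraries of batches 1 to 5, and batch 6 was deeper, with 87141961 reads in Green replicate 6 and 81537026 in Red replicate 6. The group was highly abundant: the mean was above 5000 normalized counts for 76 of the 81 genes, and 44 of them stood among the 200 genes with the highest mean. Per kilobase of exon, the 80 genes tested below had mean levels between 1779 and 100500 normalized counts, with a median of 58320, against 328 over all 14618 genes tested. The highest per kilobase were rpl-41.2 (100500), rpl-2 (94669) and rpl-7 (92585), all for large-subunit proteins. The lowest were rpl-37 (1779) and rpl-24.2 (5643). The mean of rpl-37 rests on the libraries of batch 6, for in all others it had only 19.5 to 51.6 normalized counts. The remaining gene, rpl-42, had 12 reads in all, was at 0 in 6 libraries and never exceeded 3 reads, so it fell under the minimum mean of 10 normalized counts and was not tested. Marker genes of germline, embryo, sperm, intestine, muscle, neurons, hypodermis and pharynx were all detected in at least 1 library.

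In batches 1 to 5 nearly every ribosomal protein gene was somewhat higher in Green than in Red worms, and in batch 6 nearly every one was lower. The median difference over the 80 genes, Green minus Red on the log2(normalized count + 1) scale, was 0.17 in batch 1, 0.30 in batch 2, 0.22 in batch 3, 0.35 in batch 4, 0.28 in batch 5 and -0.48 in batch 6. In the same order, 78, 78, 77, 76, 76 and 2 of the 80 genes were higher in the Green library. Among all tested genes the share higher in Green was 51.0%, 53.4%, 52.7%, 53.3%, 52.6% and 48.6%, so the table as a whole turned only slightly in batch 6. The median difference over all tested genes was 0.0073 to 0.058 in batches 1 to 5 and -0.025 in batch 6. The exceptions in batches 1 to 5 came from 5 genes: rpl-41.1 and rpl-24.2 were lower in Green in all 5 batches, rpl-11.2 and rpl-25.1 in 2 batches each, and rpl-37 in batch 4. In batch 6 the exceptions were rpl-41.2, with a difference of 0.16, and rpl-39, with 0.01. In whole-worm RNA a lower share of a tissue's cells and less RNA per cell cannot be told apart, and this holds for every difference below.

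**Figure D1:**
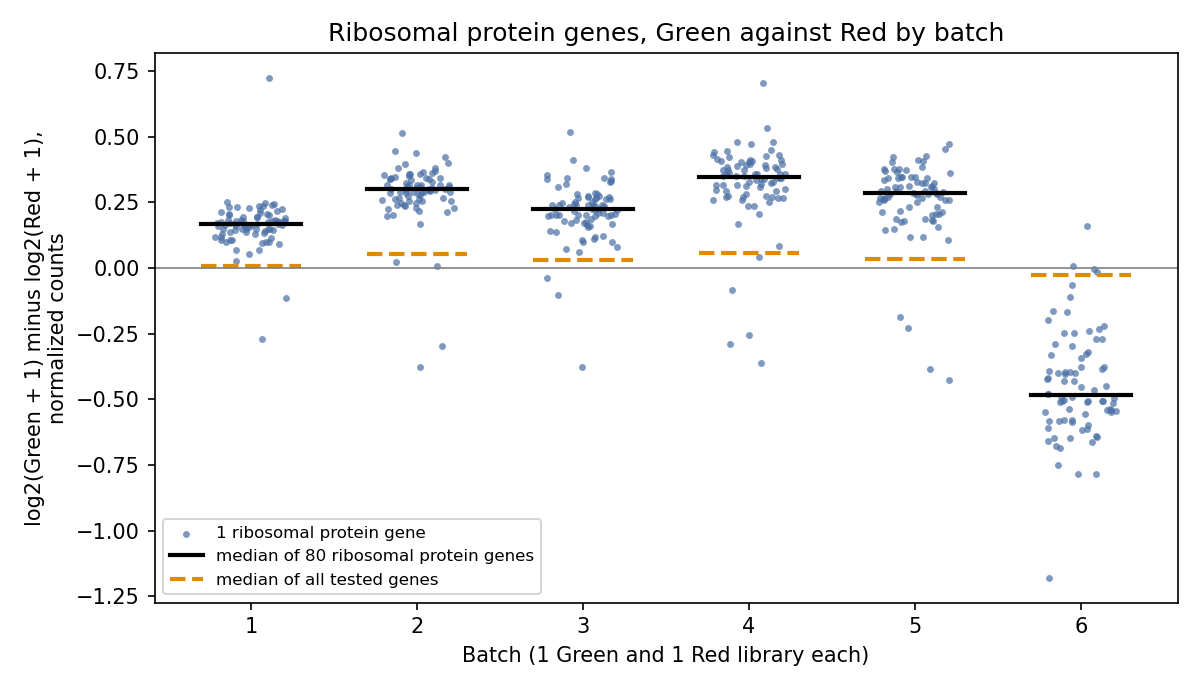
Each point is 1 of 80 ribosomal protein genes, placed by batch and by its difference between the Green and the Red library of that batch (log2 of the normalized count + 1). The black bars, medians of the group, lie between 0.17 and 0.35 in batches 1 to 5 and at -0.48 in batch 6, whereas the dashed bars, medians of all tested genes, stay near 0.

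Over all 12 libraries 2 ribosomal protein genes rose in Green worms, 2 fell and 76 did not pass the test, which was limma with Benjamini-Hochberg adjustment over all 14618 genes at an adjusted p under 0.05. The background was 19% of all genes higher and 20.1% lower (39.1% in all), so the called members, 2.50% in each direction, were a smaller share than among all genes. The median log2 fold of the group was 0.15, a fold of 1.11, against 0.04 over all genes, and it turned to -0.013 with total-read scaling and -0.015 with quantile normalization. Without the libraries of batch 6, 73 of the 80 rose, 2 fell and 5 did not pass (rps-17, rla-0, rpl-11.2, rpl-25.1 and rpl-37). The background of that fit was 27.2% higher and 23.7% lower (50.9% in all). The median log2 fold was then 0.27, a fold of 1.20, against 0.02 over all genes. Taken batch by batch, 75 of the 80 genes were higher in Green in all of batches 1 to 5, for which the background was 34.0%, and 2 were lower in all 5, for which it was 27.9%.

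The size of this difference depended on the scale. On the scale of total reads, the 81 genes held 6.71%, 6.25%, 5.79%, 6.18% and 5.64% of the reads in Green replicates 1 to 5, against 6.29%, 6.05%, 5.70%, 6.11% and 5.54% in Red replicates 1 to 5. Green was thus the higher in every pair, but by factors of only 1.07, 1.03, 1.02, 1.01 and 1.02. The 95% Wilson interval of such a share was at most 0.0167 percentage points wide and covers counting error only. The summed normalized counts of all genes were themselves higher in Green in these batches, by factors of 1.05, 1.19, 1.15, 1.26 and 1.20, which is the distance between the scales. With total-read scaling, limma called 2 members higher and 2 lower without batch 6 (median log2 fold 0.046, against -0.20 over all genes), and with quantile normalization it called 2 higher and 3 lower (median 0.012, against 0.036). Relative to the median of all genes, the group stood 0.24 higher on the log2 scale without batch 6 on the deposited scale. With total-read scaling this difference was 0.24 too, but that scaling changes only 1 factor per library and so could hardly alter it. With quantile normalization the group stood 0.024 lower. In batch 6 the share was 6.08% in Green and 7.81% in Red, a factor of 0.778, so there the Red library was higher on either scale. The summed normalized counts of all genes were lower in Green in that batch too, by a factor of 0.923.

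**Figure D2:**
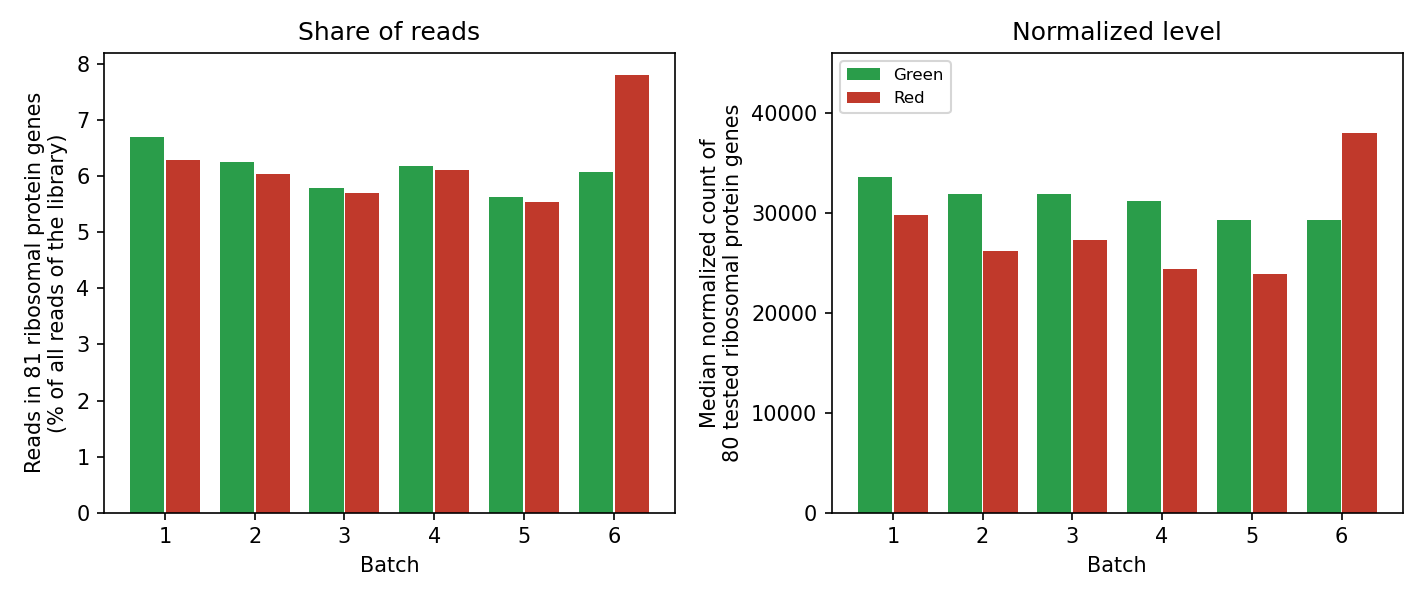
Bars give, for the Green and the Red library of each batch, the share of all reads that fell in the 81 ribosomal protein genes (left, percent) and the median normalized count of the 80 tested ones (right). In batches 1 to 5 the shares of a pair nearly match while the normalized levels differ, and in batch 6 the Red bar is the tallest in both panels.

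Both subunits and the stalk were higher in Green without batch 6, at like medians. Without batch 6, 30 of 31 small-subunit genes rose, with a median log2 fold of 0.28 and a range of 0.14 to 0.42. Of 46 tested large-subunit genes 41 rose, 2 fell and 3 did not pass, with a median of 0.26. Of the 3 stalk genes rla-1 and rla-2 rose, and rla-0, which carries the stalk, averaged 84934 ± 6884 normalized counts in Green worms and 73582 ± 8118 in Red worms (SD, n = 5 each; limma adjusted p = 0.058). Over 12 libraries the medians were 0.16, 0.15 and 0.14 for small subunit, large subunit and stalk. The members thus moved as a block of small and similar differences, and 4 large-subunit genes (rpl-11.2, rpl-25.1, rpl-24.2 and rpl-41.1), with log2 folds under 0, stood outside it.

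**Figure D3:**
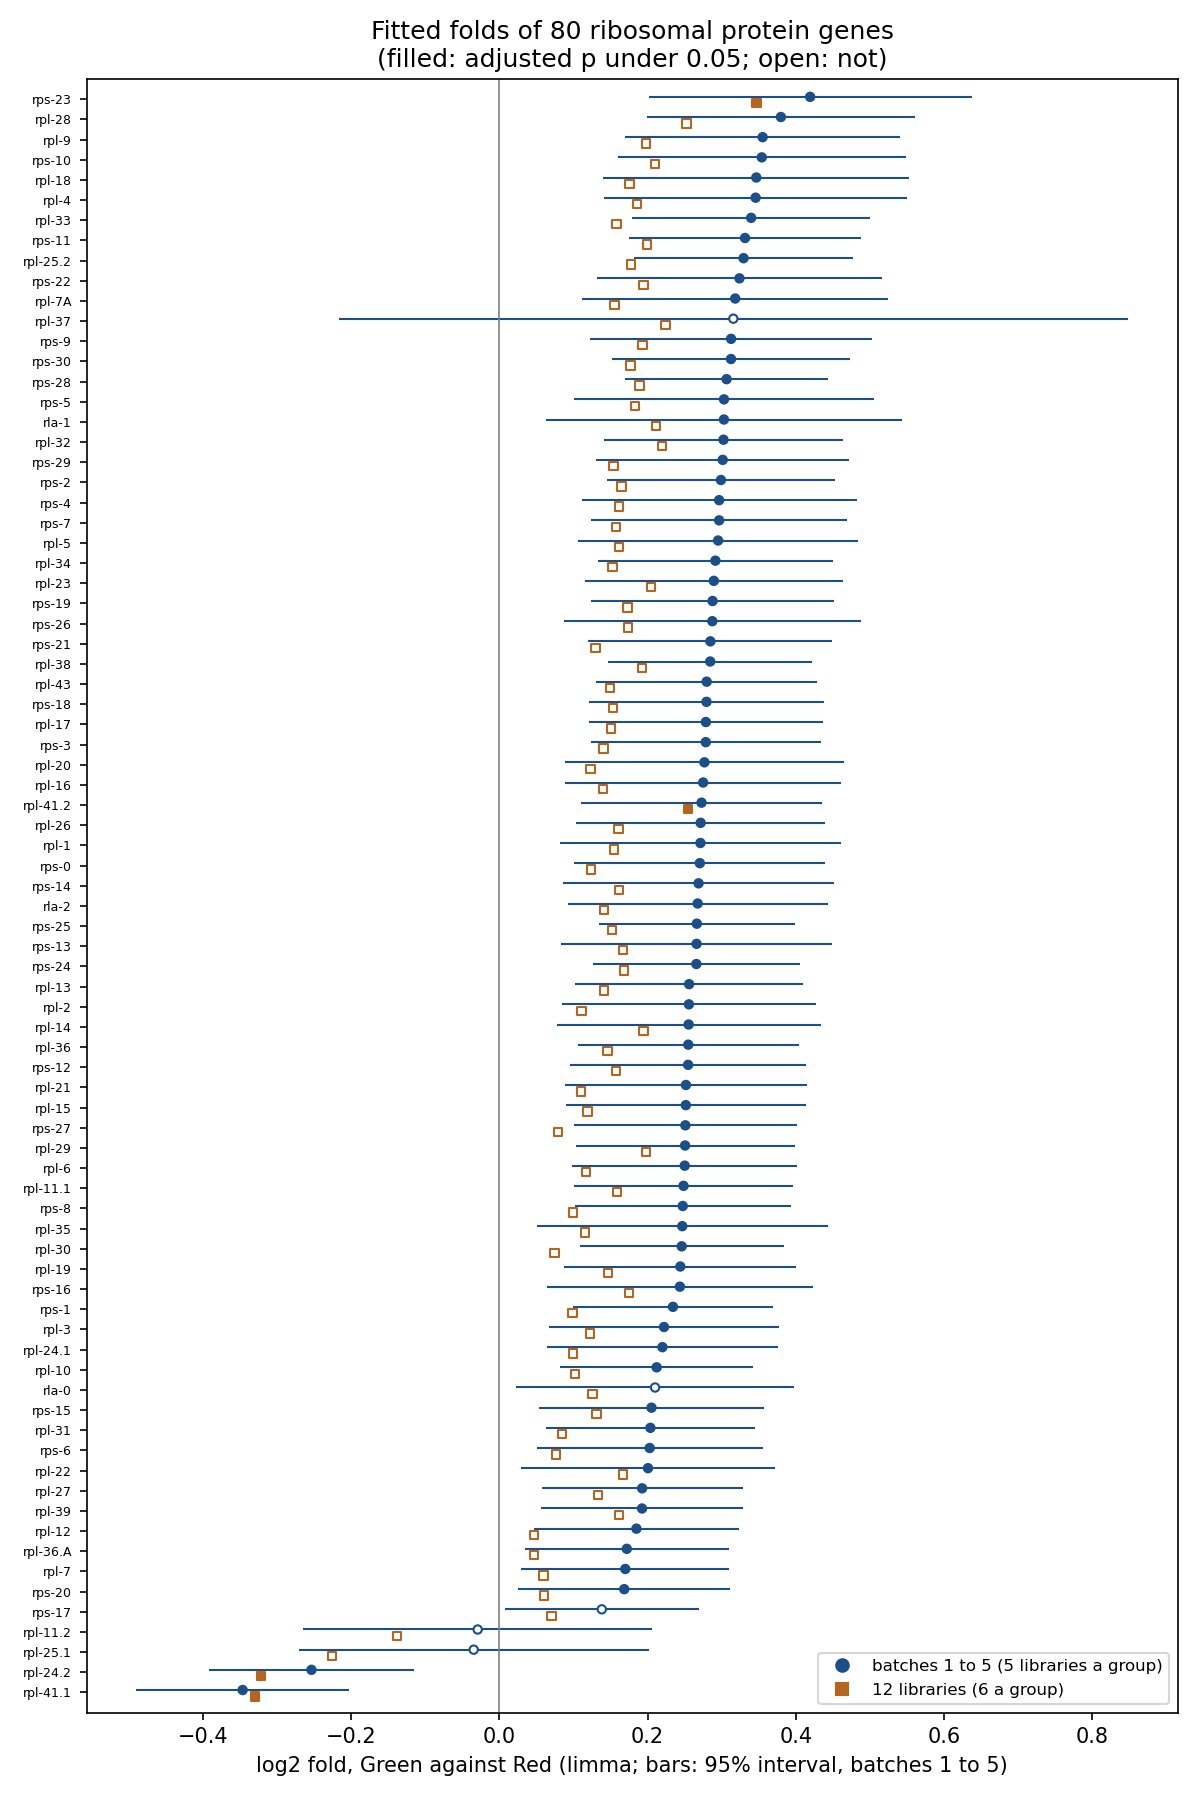
The log2 fold, Green against Red, of each of 80 ribosomal protein genes in the limma fit on batches 1 to 5 (circles, with 95% intervals) and on all 12 libraries (squares), filled where the adjusted p was under 0.05. Without batch 6, 75 circles are filled, and with it 4 squares are.

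Among small-subunit genes rps-23, for a protein at the decoding centre (IV:12390298-12391053), had the highest fold in both fits. Its level was 26323, 41268 and 44096 normalized counts (lowest, median, highest) in Green libraries and 25950, 28740 and 36925 in Red ones. The groups overlapped: Green replicate 6 lay near the lowest Red library, and in batches 1 to 5 Red replicate 1, at 36925, lay above Green replicate 5, at 34797. The log2 fold was 0.35 ± 0.13 over 12 libraries (SE; limma adjusted p = 0.048) and 0.42 ± 0.10 without batch 6 (adjusted p = 0.0052). The 12-library call lay at the threshold and was lost without any 1 of Green replicates 1 to 5 or of Red replicates 2, 4, 5 and 6, with adjusted p between 0.056 and 0.10. It was also lost with no filter (adjusted p = 0.061), TMM scaling (0.059), edgeR (0.062), total-read scaling (0.33, log2 fold 0.18) and quantile normalization (0.43, log2 fold 0.14), and the call without batch 6 was lost with quantile normalization (log2 fold 0.15, adjusted p = 0.054). In batch 6 the Green and Red values of rps-23 were 26323 and 26606, so this was a gene for which the batch 6 pair was nearly level.

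rps-10, for a protein of the small-subunit head, came next among these genes without batch 6. In batches 1 to 5 it ranged from 31991 to 38090 normalized counts in Green (median 37182) and from 24180 to 34005 in Red (median 29096), with a log2 fold of 0.35 ± 0.09 (SE; limma adjusted p = 0.0069). The groups overlapped in these batches through Red replicate 1, and in batch 6 the order was reversed, with 31328 in Green and 44552 in Red. At the other end, rps-17 was the small-subunit gene that did not pass: its level ran from 22820 to 25157 in Green and from 20566 to 23966 in Red worms in batches 1 to 5, with a log2 fold of 0.14 (95% interval 0.01 to 0.27; limma adjusted p = 0.072, or 0.034 with the batch as a block). With total-read scaling and with quantile normalization the sign of rps-17 turned, to -0.084 and -0.085.

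Of the large-subunit genes rpl-28, rpl-9 and rpl-18 had the highest folds without batch 6. For rpl-28 the levels in batches 1 to 5 were 18072 to 21939 normalized counts in Green (median 21574) and 13625 to 18414 in Red (median 15846), with a fitted log2 difference of 0.38 ± 0.08 (SE; limma adjusted p = 0.0033). For rpl-9 they were 33372 to 39924 in Green worms, against 24344 to 34108 in Red worms, and the log2 fold was 0.36. For rpl-18 they were 39729 to 49927 in Green worms, against 29580 to 42990 in Red worms, and the log2 fold was 0.35. In each of these genes the groups overlapped only through Red replicate 1 in those batches, and Red replicate 6 stood above all Green libraries, at 26704, 56154 and 71751. Over 12 libraries none of the 3 passed, with log2 folds of 0.25, 0.20 and 0.18. rpl-32 had a 12-library log2 fold of 0.22 (limma adjusted p = 0.078) and rose without batch 6, by 0.30 (adjusted p = 0.0059). With total-read scaling and with quantile normalization none of rps-10, rpl-28, rpl-9, rpl-18 and rpl-32 passed without batch 6.

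Of the genes with the highest levels per kilobase, rpl-2 and rpl-7 had folds at or below the median of the group. rpl-2, for a protein close to the site of peptide bond formation, averaged 81548 ± 5771 normalized counts in Green and 68411 ± 6532 in Red worms in batches 1 to 5 (SD, n = 5 each), a log2 fold of 0.26. For rpl-7 the means were 73977 ± 4236 in Green worms and 65766 ± 4084 in Red worms, and the log2 fold was 0.17 (limma adjusted p = 0.044), which turned to -0.053 with total-read scaling and to -0.13 with quantile normalization (adjusted p = 0.017). The call of rpl-7 was also lost with no filter (adjusted p = 0.074), TMM scaling (0.14), edgeR (0.20) and DESeq2 (0.0501), and without any 1 of Green replicates 1 to 4 or of Red replicates 2, 4 and 5 (0.060 to 0.10). rpl-12, for a protein at the stalk base, had a log2 fold of 0.19 without batch 6 and 0.05 with it, and was also turned by these scalings. Every Green library stood above every Red library of batches 1 to 5 in 8 of the 80 genes: rpl-11.1, rpl-25.2, rpl-27, rpl-36, rpl-38, rpl-43, rps-25 and rps-28. These are 10% of the members, against a background of 16.3%. In rpl-41.1 and rpl-24.2 every Green library of these batches lay below every Red one, which is 2.50% against a background of 14.8%.

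The 2 members that fell did so in every batch. rpl-41.1 (I:4789190-4789592) had 1867, 2054 and 2106 normalized counts (lowest, median, highest) in Green libraries and 2366, 2527 and 2832 in Red ones. Every Green library lay below every Red one, also in batch 6, with a log2 fold of -0.33 ± 0.07 (SE; limma adjusted p = 0.0023) and -0.35 without batch 6 (adjusted p = 0.0016). rpl-24.2 (I:9669415-9670098), the relative of the assembly factor known as Rlp24 in yeast, had 2801, 2874 and 3052 in Green libraries and 3124, 3565 and 4798 in Red ones. These groups did not overlap either, with a log2 fold of -0.32 ± 0.09 (adjusted p = 0.014) and -0.25 without batch 6 (adjusted p = 0.0068). They were the only 2 members without overlap over 12 libraries, which is 2.50% against a background of 16.8%. Both calls were lost when each library was centred on its median gene, where rpl-41.1 had a log2 fold of -0.20 and rpl-24.2 one of -0.20 over 12 libraries.

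Both genes that fell belong to a pair of like genes whose other member is far more abundant, and 4 such pairs were compared by the ratio of the abundant to the scarce gene within each library, which 1 scaling factor per library cannot alter. The ratio was higher in Green than in Red in 6 of 6 batches in all 4 pairs, batch 6 included. rpl-41.1 and its neighbour rpl-41.2 (I:4790292-4790642) bear the name of the same large-subunit protein, and their ratio ranged from 13.6 to 16.5 (median 15.4) in Green and from 8.29 to 12.1 (median 10.2) in Red libraries. These ranges did not overlap, and the mean log2 ratio differed by 0.58 (exact two-sided permutation test over 924 splits, p = 0.0022, the smallest it can give; adjusted over the 4 pairs, 0.0087). rpl-41.2 itself ranged from 27125 to 33120 normalized counts (median 31224) in Green and from 23473 to 30225 (median 24364) in Red, and rose by 0.25 ± 0.08 on the log2 scale (SE; limma adjusted p = 0.022), a call that was lost without Green replicate 1 or Red replicate 2 (adjusted p = 0.052 and 0.051). The fold of rpl-41.2 was 0.088 with total-read scaling (adjusted p = 0.46) and 0.10 with quantile normalization (adjusted p = 0.40), where the call was lost too.

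For rpl-24.1 over rpl-24.2 the ratio ranged from 13.8 to 17.8 (median 15.2) in Green and from 8.81 to 15.9 (median 11.3) in Red libraries. The overlap came from Red replicate 6, at 15.9, and the log2 difference was 0.42 (exact permutation p = 0.013, adjusted 0.017) and 0.47 without batch 6 (adjusted 0.016). The rpl-25 genes encode a large-subunit protein near the exit tunnel, and rpl-25.2 over rpl-25.1 ranged from 7.09 to 9.11 (median 7.68) in Green and from 5.02 to 7.93 (median 5.80) in Red, overlapping through Red replicate 3 at 7.93. The log2 difference of that pair was 0.40 (exact permutation p = 0.0087, adjusted 0.017) and 0.36 without batch 6 (adjusted 0.042). The rpl-11 protein helps to hold a small ribosomal RNA in the large subunit, and rpl-11.1 over rpl-11.2 ranged from 4.32 to 7.51 (median 5.64) in Green and from 3.28 to 6.36 (median 4.76) in Red, with wide overlap and a log2 difference of 0.30 (exact permutation p = 0.13, adjusted 0.13). Exchanging Green and Red within batches gave p = 0.031 for each pair over 6 batches and 0.0625 over 5, the smallest values that such an exact test allows, so the batch as a block changed the call for rpl-11 over 12 libraries. How reads were shared out between like copies is not given in the sources used here, so the level of each single copy is uncertain. The pairs were set up, and their ratio tested, with the direction of some members known.

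**Figure D4:**
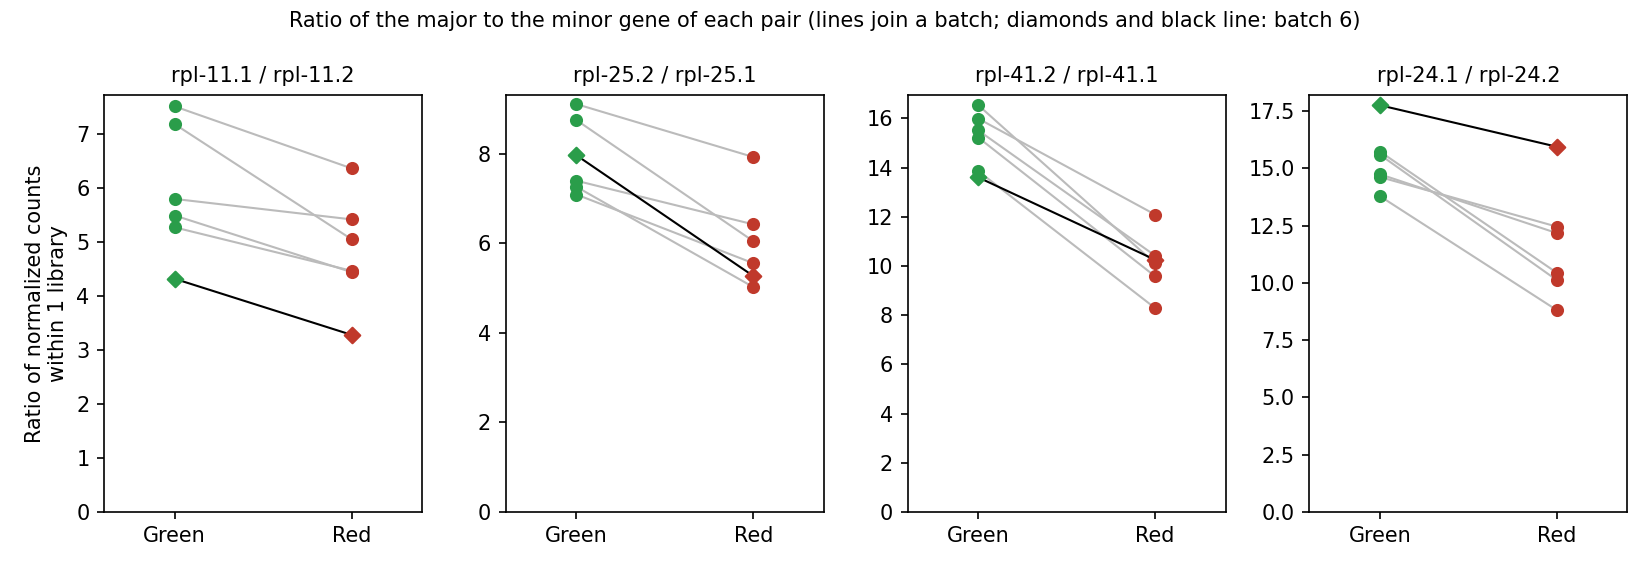
Ratio of the normalized counts of the abundant to the scarce gene of each of 4 pairs in the 6 Green and 6 Red libraries. Lines join the libraries of a batch, with batch 6 in black and as diamonds, and all 24 lines run lower on the Red side.

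The scarce genes of 2 of these pairs, rpl-11.2 (X:2241738-2242618) and rpl-25.1 (X:4715178-4715796), were the only members on the X chromosome. The other 79 were spread over I (25), II (10), III (18), IV (18) and V (8). Without batch 6, rpl-11.2 ranged over 5415 to 7497 normalized counts in Green worms and 5768 to 7374 in Red worms, and rpl-25.1 had 3095 to 4255 in Green and 3264 to 4471 in Red. The groups overlapped in full, and both log2 folds were -0.03 (95% intervals -0.26 to 0.21 and -0.27 to 0.20), turning to 0.11 when libraries were centred on the median gene. The median log2 fold of all tested X-linked genes in that fit was -0.23, and on the autosomes the medians lay between -0.02 (V) and 0.10 (III), so both X-linked members had folds above the median of their chromosome and below those of all autosomal members tested but rpl-24.2 and rpl-41.1. With 2 genes no test of the chromosome was made.

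Red replicate 6 stood apart for this group, though not for it alone. Among all tested genes, those called higher in Green numbered 2781 with this library and 4287 without it. Within the group, Red replicate 6 was the highest of the 6 Red libraries in 70 of the 80 genes, or 87.5%, for which the background was 32.8%. It was the highest of all 12 libraries in 67, for which the background was 23.8%. Leaving out rpl-37, the 79 other genes deviated from the mean of Red replicates 1 to 5 by a median log2 difference of 0.68, a fold of 1.60, against -0.01 over all tested genes. Green replicate 6 deviated from Green replicates 1 to 5 by a median of -0.03. The spread over genes was wide in both libraries of this batch: the SD of the 79 deviations was 0.21 in Green replicate 6 and 0.34 in Red replicate 6. It was 0.056 to 0.14 in the other 10 libraries, each set against all other libraries of its group, replicate 6 included. Over all tested genes the SD was wider still, at 0.44 in Green replicate 6 and 0.84 in Red replicate 6. The genes that stood high or low in batch 6 were largely shared by its libraries, with a Spearman correlation of 0.75 between the deviations across 79 genes, against 0.10 across all tested genes. Genes are not independent replicates, and the libraries share a batch, so this is a description only. Longer genes tended to deviate upward in both, with a correlation to exonic length of 0.35 in Green replicate 6 and 0.35 in Red replicate 6, against 0.03 and -0.02 over all genes.

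The extremes show that batch 6 reordered the members. rps-25 had 49912 normalized counts in Green replicate 6 and 66886 in Red replicate 6, against 31479 to 34916 in the other Green and 24515 to 29360 in the other Red libraries. rpl-36.A stood high likewise, at 29107 in Green replicate 6 and 43445 in Red replicate 6. Low in both was rps-23, with 26323 in Green replicate 6 and 26606 in Red replicate 6, log2 deviations of -0.63 and -0.20 from replicates 1 to 5 of the same group. rpl-11.1 was low in Green replicate 6 alone, with 29046 against 38896 to 42858 in the other Green libraries, whereas it had 35447 in Red replicate 6 against 32006 to 38644 in the other Red ones. rpl-12 stood low in Green replicate 6, at 27877 against 38421 to 44796 in the other Green libraries, whereas Red replicate 6 held 43586. The depth of batch 6 was the highest, and the part of depth, RNA quality or tissue content in these values was not tested.

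**Figure D5:**
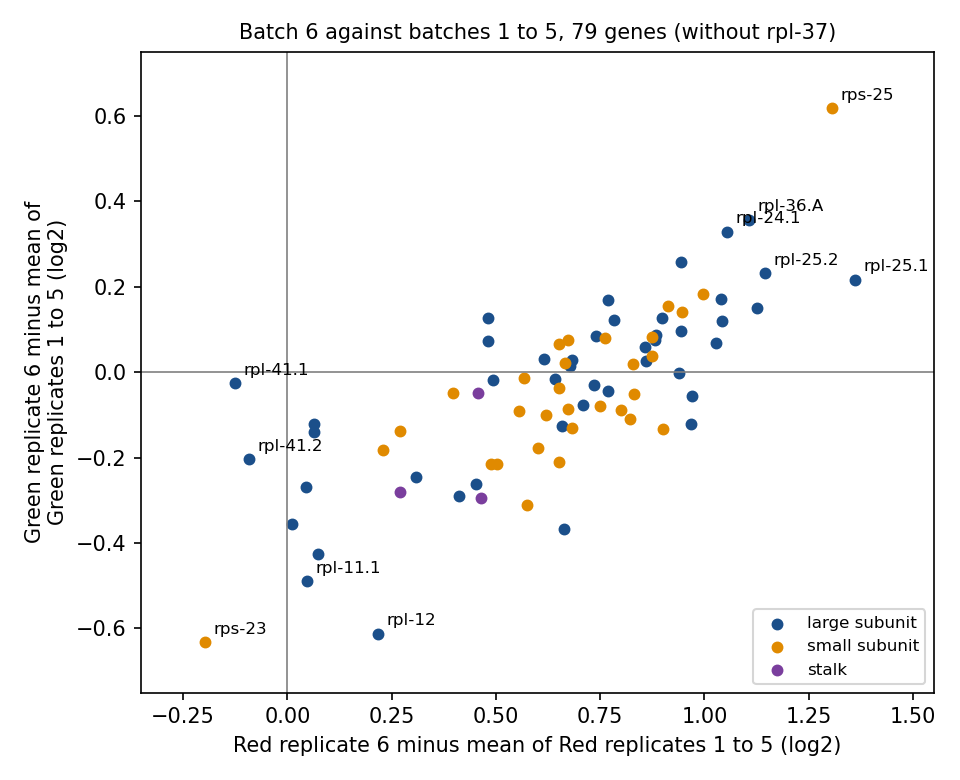
Deviation of Red replicate 6 (x axis) and of Green replicate 6 (y axis) from the mean of replicates 1 to 5 of the same group, log2 scale, for 79 ribosomal protein genes coloured by subunit. Most points lie right of 0, around a median of 0.68 for Red replicate 6, whereas Green replicate 6 centres on -0.03, and the points run upward together.

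rpl-37 had the strongest step in batch 6 of any member. In batches 1 to 5 this short gene (III:3528642-3528917, with 276 bases of exon) ranged over 19.5 to 51.6 normalized counts in Green and 23.0 to 30.8 in Red libraries, but it had 2571 in Green replicate 6 and 3021 in Red replicate 6. Only 2 of 14618 tested genes had both batch 6 libraries over 10-fold above all others, and the second, chosen after its values were seen, was the heat shock gene hsp-16.11. The annotation holds a second gene for this protein, W01D2.1 (II:14815518-14816140), which the name rule does not match. Of the reads on both, rpl-37 had 0.092% to 0.24% in batches 1 to 5, 12.4% in Green replicate 6 (95% Wilson interval 12.1 to 12.8) and 9.67% in Red replicate 6 (9.41 to 9.93). W01D2.1 itself ranged over 19305 to 21704 normalized counts in Green and 15640 to 18919 in Red libraries in batches 1 to 5, with 18085 in Green replicate 6 and 28228 in Red replicate 6, so its Red replicate 6 value was the highest of the 12, as for most members. Between Green and Red worms rpl-37 did not pass the test, and its log2 fold of 0.22 over 12 libraries, with an SE of 1.29, ranged from -0.82 to 1.36 when single libraries were left out.

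Ribosomal proteins whose names the rule does not match gave like values. rack-1, for a scaffold on the small subunit, and ubl-1 and ubq-2, for ribosomal proteins made as fusions to ubiquitin or a ubiquitin-like protein, did not pass over 12 libraries and rose without batch 6, with log2 folds of 0.28, 0.29 and 0.27. Red replicate 6 held 101379 normalized counts of rack-1, above the 71611 of Green replicate 6 and the 55070 to 79908 of the other libraries. Of 71 mitochondrial ribosomal protein genes, a separate set that serves the ribosome inside mitochondria, 18 rose (25.4%, against 19% of all genes) and 0 fell over 12 libraries, and 38 rose without batch 6 (53.5%, against 27.2%; 0 fell; median 0.21). Of these, mrps-34 rose by 0.45 on the log2 scale (limma adjusted p = 0.0021) and mrps-16 by 0.37 (adjusted p = 0.0042), both in 6 of 6 batches. The calls of this list and of those below were made on the deposited scale and were not counted with other scalings.

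Of 54 ribosome biogenesis genes 21 rose (38.9%) and 3 fell (5.56%) over 12 libraries, with a median of 0.20, and 32 rose (59.3%) and 3 fell without batch 6, with a median of 0.23. For this and the next lists the shares over all genes were 19% higher and 20.1% lower over 12 libraries, and 27.2% and 23.7% without batch 6. nol-10, for a nucleolar protein, rose by 0.37 on the log2 scale (limma adjusted p = 0.0059), and ngp-1, for a nucleolar GTPase, fell by 0.29 (adjusted p = 0.0021). Of 44 translation factor genes 7 rose (15.9%) and 4 fell (9.09%) over 12 libraries, with a median of 0.12, and 24 rose (54.5%) and 4 fell without batch 6, with a median of 0.19. Both genes of that list with the smallest p were lower in Green: pab-2, for a poly(A)-binding protein, ranged over 4127 to 5389 normalized counts in Green libraries and 6819 to 11617 in Red libraries, without overlap (log2 fold -0.97, limma adjusted p = 6.6e-05), and eef-1A.2, for an elongation factor that brings in aminoacyl-tRNA, fell by a log2 fold of 0.56 (adjusted p = 0.0023). Of 11 regulators of ribosome production 3 rose (27.3%) and 1 fell over 12 libraries, and 6 rose (54.5%) and 1 fell without batch 6. rheb-1, for a GTPase that activates TOR, rose by 0.33 on the log2 scale (adjusted p = 0.027), and pha-4, for a FoxA transcription factor that is also among the embryo markers, fell by 0.85 (adjusted p = 0.00042).

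Sums of tissue markers differed between Green and Red worms too, some higher in Green and others lower. The summed level of 18 germline and oocyte markers was 795928 to 960362 normalized counts in Green and 480217 to 713585 in Red libraries of batches 1 to 5, without overlap, and 870426 in Green replicate 6 and 871607 in Red replicate 6. Of these markers 16 rose over 12 libraries and 18 without batch 6, and none was at 0 in all libraries. The 12 intestine markers summed to 1546371 to 2243738 in Green and 1001132 to 1502723 in Red in batches 1 to 5, and to 1874633 in Green replicate 6 and 2260302 in Red replicate 6, where Red was again the higher. In both sums Red replicate 6 was above the other Red libraries. This also held for the sums of embryo, neuron and pharynx markers, but not for those of muscle, sperm and hypodermis. Gene by gene, the median deviation of Red replicate 6 from Red replicates 1 to 5 was 0.46 over the germline and oocyte markers but -0.00093 over the intestine markers, of which 5 rose, 1 fell and 6 did not pass over 12 libraries. The 12 body-wall muscle markers summed to 41778 to 66760 in Green and 28808 to 48555 in Red in batches 1 to 5, and to 55344 in Green replicate 6 and 47227 in Red replicate 6. Embryo markers went the other way, at 19297 to 21367 in Green and 21662 to 26749 in Red in batches 1 to 5, with 20151 in Green replicate 6 and 27273 in Red replicate 6. Neuron markers were lower in the Green library of every batch too, at 17617 to 19817 against 19230 to 22980 in Red in batches 1 to 5, with 17731 in Green replicate 6 and 23481 in Red replicate 6. Of 5 tested sperm markers 0 rose and 1 fell over 12 libraries, and of 11 hypodermis markers 1 rose and 3 fell. Of 8 pharynx markers 1 rose and 3 fell over 12 libraries. Their sum was higher in Green in each of batches 1 to 5, at 8225 to 10203 against 7294 to 9743 in Red. That sum was 8278 in Green replicate 6 and 9885 in Red replicate 6. The part of tissue content in the differences of the ribosomal protein genes was not tested.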

How the data were processed

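RNA of whole worms from 6 Green and 6 Red libraries was compared. The labels' protocols name the Qiagen miRNeasy kit for extraction and, for the libraries, a stranded mRNA kit (Roche Kapa HyperPrep). FastQC 0.11.8, STAR, MultiQC, Salmon 0.14.2, DESeq2 and build WBcel235 are named in the submitters' processing notes; the sources used here give neither settings, nor strand use, nor how reads were shared between like genes. The deposited signal is a normalized count, the reads of a gene over the size factor of its library. Once these factors were recovered, 100% of values were whole reads within 0.001; for Red replicate 2 the factor is close to 1, so the check is weaker there. Gene positions and lengths came from the Ensembl annotation of that build.

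The main test was limma 3.58.1 (eBayes with trend, R 4.3.3) on log2(normalized count + 1) over 14618 genes with a mean of at least 10, with Benjamini-Hochberg adjustment and a threshold of 0.05, on 12 libraries and, on the same genes, on the 10 of batches 1 to 5. Adding 1 shrinks the folds of low genes. The script was tested on simulated data. Ratios of paired genes were tested by exact permutation. The members and gene lists were chosen with earlier results of these data known.

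Members named are those called over 12 libraries, the 5 highest and 5 lowest folds of each fit, the 3 highest and 3 lowest levels per kilobase, the 4 pairs and any member under the filter; of other lists, up to 2 genes with the smallest p. Other genes were named after their values were seen. Libraries are paired by the batch given in the labels, and within batches the deviations from group means correlated by 0.11 to 0.37. Every pair of replicates differed by more than sampling noise. Alternatives were the batch as a block, pseudocounts of 0.5 and 5, no filter, TMM scaling, quantile normalization, median centring, edgeR 4.0.16 and DESeq2 1.42.0 on recovered reads, leaving out each library and leaving out batch 6. Total-read scaling and the tests of the pairs were added after seeing the data.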

Additional observations from a re-analysis of the deposited data

Results flagged for a closer look

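Of 48 groups of 6 libraries examined with Dixon's test, 14 held a library set apart from the rest of its group. Of these, 12 were Red replicate 6 and 2 were Green replicate 6. Chance marks about 1 in 20 independent groups, but these groups share the same libraries, so the count cannot be set against that rate. Among Red libraries, replicate 6 was set apart as the highest for rpl-2 (140145 normalized counts), rpl-7 (113083), rpl-24.1 (76482), rpl-18 (71751), rpl-9 (56154), rpl-25.2 (52272), rpl-28 (26704), rpl-11.2 (10806), rpl-25.1 (9916), rpl-24.2 (4798) and rpl-37 (3021). It was also highest for the share of reads in the 81 ribosomal protein genes (7.81%). Green replicate 6 was the highest Green library for rpl-37 (2571 normalized counts) and the lowest for rpl-11.1 (29046). The groups did not cover every member, so the list leaves out others in which a library stood apart. In rps-1, which was not examined, Red replicate 6 had 107493 normalized counts, against 50564 to 58652 in the other Red libraries.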

How the results depend on the processing

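The higher count depended most on Red replicate 6 and on the scaling. Over 12 libraries the count of members higher in Green was 2, and it was 1 without a filter, with TMM scaling and with edgeR, 0 with total-read scaling and with quantile normalization, 10 with median centring, 73 without batch 6, and 0 to 65 when single libraries were left out (6 without Green replicate 6, 65 without Red replicate 6, 4 without Red replicate 1). The count of members lower in Green, 2, became 0 with median centring in both fits. The 12-library median log2 fold turned to -0.013 with total-read scaling and to -0.015 with quantile normalization. Without batch 6 the 73 members became 2 with either of these scalings and 50 with edgeR, and the median of 0.27 became 0.046, 0.012, 0.41 with median centring and 0.19 with edgeR. All genes called numbered 2781 higher and 2938 lower in Green over 12 libraries, against 2367 and 3242 with edgeR on recovered reads and 4163 and 2337 with median centring. Those higher numbered 1097 with total-read scaling over 12 libraries, where 3775 were lower, and 1977 to 4287 with single libraries left out; without batch 6 that scaling gave 1357 higher and 5336 lower.

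With the batch as a block limma called 2 members higher and 2 lower over 12 libraries and 75 and 2 without batch 6, and the rpl-11.1 to rpl-11.2 log2 ratio difference of 0.30 passed in the exact test within batches (p = 0.031, unadjusted). In limma the block changed no call of a member named by the rule given above apart from rps-17 without batch 6. That rule does not cover rla-0. Without batch 6 the exact test within batches gave p = 0.0625 for each of the 4 pairs, the smallest it can give over 5 batches. No pair could thus pass it there, also not those that passed the exact permutation test without the block.

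Single genes turned sign as follows, and none of these causes was tested. Over 12 libraries total-read scaling and quantile normalization gave -0.0072 and -0.032 for rpl-11.1, -0.12 and -0.15 for rpl-12, -0.056 and -0.051 for rpl-2, -0.067 and -0.077 for rpl-24.1, -0.11 and -0.13 for rpl-7 and -0.096 and -0.096 for rps-17; quantile normalization gave -0.011 for rpl-18. edgeR gave -0.16 for rpl-37 and -0.0032 for rpl-7, and DESeq2 -0.21 for rpl-37. Leaving out single libraries gave -0.82 to 1.36 for rpl-37 and -0.32 to 0.0015 for rpl-25.1. Without batch 6 quantile normalization gave -0.023 for rpl-11.1, -0.095 for rpl-12, -0.025 for rpl-2, -0.063 for rpl-24.1, -0.13 for rpl-7 and -0.085 for rps-17; total-read scaling gave -0.038 for rpl-12, -0.0025 for rpl-24.1, -0.053 for rpl-7 and -0.084 for rps-17. Median centring gave 0.11 for rpl-11.2 and for rpl-25.1, and leaving out single libraries gave -0.085 to 0.042 and -0.095 to 0.037.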
